A study of Caenorhabditis elegans with 2 samples.

Results

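This account concerns 387 of the 1205 peaks in the optimal list of a ChIP-seq experiment on C04F5.9, namely the peaks whose summit lay more than 500 bp from the 5′ end of any annotated protein-coding transcript. They are called distal peaks here, and the other 818 are called promoter peaks. Chromatin immunoprecipitation followed by sequencing recovers the DNA that a tagged protein was crosslinked to. C04F5.9 is annotated in RefSeq as a protein with a C2H2-type domain, a zinc finger fold found in many DNA-binding proteins. The single group was strain OP525 of Caenorhabditis elegans, which carries unc-119(tm4063) on chromosome III and the insertion wgIs525. Per the labels, this insertion stably expresses C04F5.9 fused to a C-terminal GFP-FLAG tag. The animals were hermaphrodites of the first larval stage (L1), taken 6 hours after synchronisation by starvation following bleaching. Whole organisms were used, so all tissues are mixed, and the immunoprecipitation used an antibody against GFP. There were 2 biological replicates of this 1 line, and no second condition.

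Most C. elegans genes have compact regulatory sequence, and the genome is dense with genes. The annotated 5′ end of a worm mRNA is often the site where a spliced leader was joined to it, and the true start of transcription can lie further upstream. Spliced leaders are short RNAs, SL1 and SL2, that are donated in trans, and SL2 serves mainly the downstream genes of operons. Genes for spliced leaders and for spliceosomal small nuclear RNAs (snRNAs) have promoter elements just upstream of the transcribed sequence. Genes for transfer RNAs (tRNAs) are transcribed by RNA polymerase III from promoter elements inside the gene, and small nucleolar RNAs (snoRNAs) guide the modification of other RNAs.

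Selected sequences are shown first, all in ce11 (WBcel235). The first set lies upstream of SL2 genes on chromosome II. It is shown because the distal peaks at sls-2.1 and sls-2.2 were among the strongest, while the one at sls-2.3 was weaker. Each line runs from 72 to 43 bases before the annotated 5′ end, on the strand of the gene, and capitals mark the 15 bases shared by all 3.
sls-2.1, chrII:5844793-5844822 (+): cagttatTCGCTTGCCTCGAAAgatgtctg
sls-2.2, chrII:5543526-5543555 (+): ctgttacTCGCTTGCCTCGAAAgcggtcgg
sls-2.3, chrII:5544316-5544345 (-): ccgttcaTCGCTTGCCTCGAAAaatgtctg

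The same window is shown for the other snRNA genes with a distal summit within 100 bp of their 5′ end, those on the first chromosome left out. Capitals mark the 5 bases AACCC, the longest run shared by all 5.
sup-6, chrII:12945010-12945039 (-): ccgcagcgagcggcggAACCCgccacatgt
R07E5.16, chrIII:10989607-10989636 (+): agcggAACCCatgacatgtctgctacactc
sup-39, chrII:6968601-6968630 (-): aagatgggcagctgcgaAACCCgcgagatg
F38E11.11, chrIV:9444570-9444599 (+): cactgacccgcgaAACCCgcaagaggacgg
F54D8.7, chrIII:5080941-5080970 (-): tgcggAACCCacgagatgtctgccgccttg

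The last set shows the 6 strongest distal peaks that held the 8-base word AGACGCAG within 50 bp of the summit, again without the first chromosome. This word was the one most concentrated at distal summits, and capitals mark it.
near F25E2.2, rank 85, chrX:806681-806710 (-): gaccacacaagAGACGCAGcaacaaacacc
epg-9 intron, rank 97, chrIV:2602166-2602195 (-): gactacggaggAGACGCAGacaggcaaaga
near W01H2.8, rank 166, chrX:4222912-4222941 (+): ggttaccgcggAGACGCAGacgaggcgaag
Y111B2A.12 intron, rank 209, chrIII:12612654-12612683 (-): aaatgacaccgAGACGCAGacatcgagtga
near T04C4.3, rank 213, chrIV:2219611-2219640 (-): ccacgtgcaagAGACGCAGagacatttggc
C05D11.8 3′ UTR, rank 294, chrIII:6421175-6421204 (+): gggtttgatagAGACGCAGgcatcgaccgc

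Distal peaks lay mostly between genes. Of the 387 summits, 225 were intergenic (58.1%, exact 95% interval 53.0 to 63.1%), 96 lay in an intron of a protein-coding gene (24.8%, 20.6 to 29.4%) and 53 inside a non-coding gene (13.7%, 10.4 to 17.5%). Coding exons held 7 summits, 3′ UTRs held 4 and 5′ UTRs held 2. Intervals cover counting error only. These shares were set against the 20195 weaker distal regions. Those are the regions of the relaxed combined list that obeyed the same distance rule and overlapped no optimal peak. The authors label the combined list as peaks and background, so a weaker distal region need not be a bound site. The unit of each test is a peak, not an animal, and neighbouring peaks are not independent.

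Coding exons were almost free of distal peaks. They held 1.81% of distal summits, against 22.3% of weaker distal regions (odds ratio 0.0642, 95% interval 0.0304 to 0.136; two-sided Fisher's exact test, adjusted p = 5.12e-31 over 12 tests). Intergenic summits were more frequent among distal peaks, at 58.1% against 34.6% (odds ratio 2.63, 2.15 to 3.23; Fisher's exact test, adjusted p = 4.21e-20). Introns held a smaller share of distal peaks, 24.8% against 34.7% (odds ratio 0.621, 0.492 to 0.783; Fisher's exact test, adjusted p = 6.62e-05). UTRs held 1.55% against 4.17% (odds ratio 0.362, 0.161 to 0.812; Fisher's exact test, adjusted p = 0.00691), and non-coding genes held 13.7% against 4.27% (odds ratio 3.56, 2.64 to 4.79; adjusted p = 6.97e-13).

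The shares also changed with signal along the combined list. Against the 572 next distal regions by signal alone, the intergenic odds ratio was 1.36 (Fisher's exact test, adjusted p = 0.0316) and the coding exon odds ratio 0.211 (adjusted p = 7.23e-05). The intron, UTR and non-coding gene differences no longer passed, with odds ratios of 0.864 (Fisher's exact test, adjusted p = 0.371), 0.413 (adjusted p = 0.0953) and 1.41 (adjusted p = 0.12). The UTR difference also did not pass among peaks above the median signal of the list (odds ratio 0.612, Fisher's exact test, adjusted p = 0.472) or with the top regions of replicate 1 alone (0.78, adjusted p = 0.446).

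**Figure D1:**
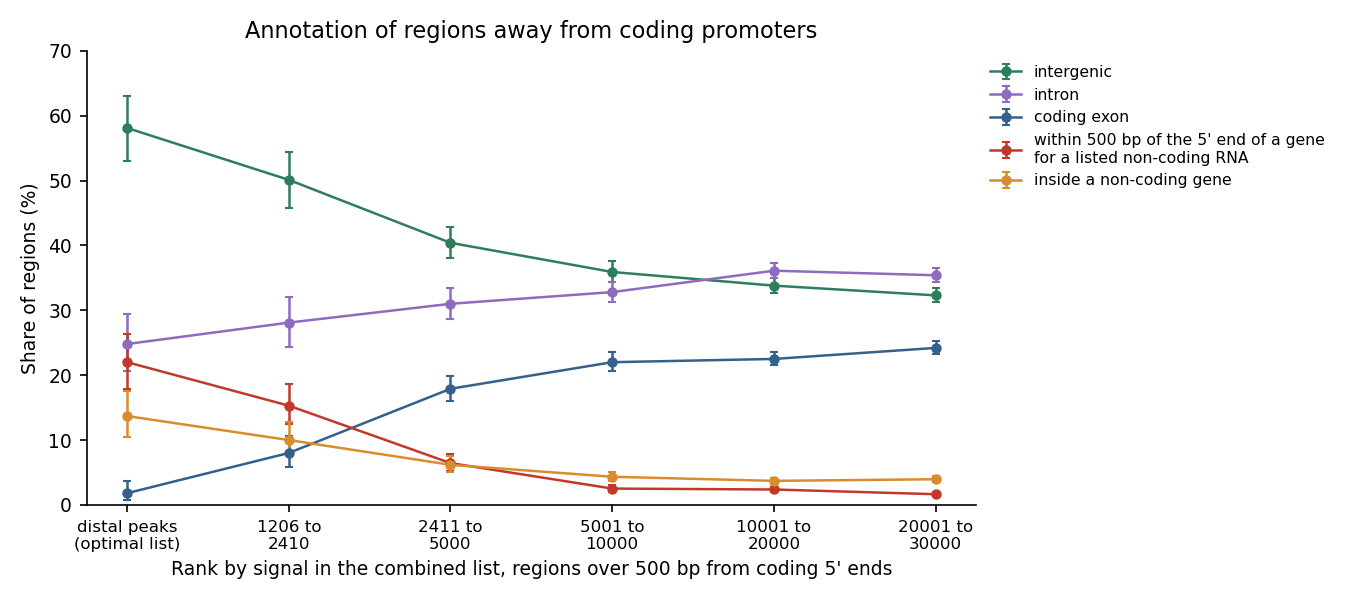
Share of regions (%, exact 95% intervals) in each annotation class, for distal peaks and for distal regions of the combined list at lower ranks by signal, which overlap no optimal peak. The intergenic share was 58.1% in distal peaks and 32.3% at ranks 20001 to 30000, and the coding exon share was 1.81% and 24.2%.

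The strongest intergenic distal peaks by signal, a value set by the authors' calling run that ranks peaks within a list, lay 58 bp upstream of sls-2.1 (536.1, rank 29), 57 bp upstream of sls-2.4 (535.4, rank 30) and 181 bp from F02E9.10 (506.7, rank 32). Among introns, Y56A3A.7 held the leading pair (492.3 and 488.0, ranks 35 and 37), followed by Y41G9A.17 (398.5, rank 52). The non-coding class was led by F26F4.14 (472.6, rank 39), VF15C11L.1 (363.9, rank 64) and sup-6 (245.6, rank 138). Coding exon summits of highest signal lay in pks-1, which encodes a polyketide synthase (229.3, rank 163), mix-1, which encodes a condensin subunit (217.0, rank 185), and best-18, of the bestrophin family (128.6, rank 493). The pks-1 summit lay 15168 bp from the nearest coding 5′ end.

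UTR summits were few but included the strongest distal peak of all. Rank 13 (signal 1918.1) fell inside the 3′ UTR of the Tudor domain gene ekl-1, which acts in small RNA pathways, at 1206 bp from the start of F22D6.8. It ranked 12 in both replicates. The other 3′ UTR summits lay in C05D11.8 (170.8), slc-25A46 (120.9) and ceh-8 (85.3). Those in 5′ UTRs lay in C34C12.2 (515.4, rank 31) and F22D3.4 (78.9, rank 1053).

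Distances to the nearest protein-coding 5′ end ran from 502 to 20164 bp with a median of 1638 bp. The weaker distal regions had a median of 1748 bp. There were 124 distal peaks up to 1000 bp away, 105 between 1000 and 2000 bp, 128 between 2000 and 5000 bp, and 30 beyond 5000 bp. The summit was upstream of the nearest coding 5′ end in 245 peaks and downstream in 142. Among the 124 closest, 97 were upstream (78.2%).

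The threshold divided neighbouring values. Just outside it were the peaks near K12H4.5 (502 bp, signal 274.7), gmeb-1 (505 bp, 105.1) and epn-1 (507 bp, 148.8). Just inside were promoter peaks at T24B8.3 (496 bp, 101.5), R166.2 (486 bp, 234.1) and lido-13 (482 bp, 77.7). A window of 250 bp would leave 597 distal peaks, and one of 1000 bp would leave 263.

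Farthest from any coding 5′ end was a summit in an intron of gcn-1, a gene of translational control, at 20164 bp (rank 801). It lay 343 bp upstream of the microRNA gene cel-mir-229. Next came summits near the pseudogene Y111B2A.25 (16606 bp, rank 1136), in pks-1 (15168 bp), 287 bp upstream of cel-mir-80 (11474 bp, rank 313) and in the pseudogene Y48A6C.2 (8292 bp, rank 372). Distance to the body of the nearest gene of any kind had a median of 56 bp, and to the nearest protein-coding gene 515 bp.

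The neighbours of an intergenic summit show which gene ends face it. Between divergent genes, whose 5′ ends both face the summit, lay 63 of the 225 intergenic distal peaks (28.0%), against 2469 of 6978 intergenic weaker distal regions (35.4%). Tandem genes flanked 134 (59.6%), against 55.8%. Convergent genes, whose 3′ ends face the summit, flanked 28 (12.4%), against 8.73%. These shares were not tested.

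Genes for short non-coding RNAs were close to many distal peaks. The 5′ end of a tRNA, snRNA, snoRNA, rRNA, microRNA, lincRNA (long intergenic non-coding RNA) or antisense RNA gene lay within 500 bp of 85 of 387 distal summits (22.0%, 17.9 to 26.4%), against 565 of 20195 weaker distal regions (2.8%). The odds ratio was 9.78 (7.58 to 12.6; two-sided Fisher's exact test, adjusted p = 4.30e-46). Against the 572 next distal regions by signal alone, 88 of which were that close, the odds ratio was 1.55 (Fisher's exact test, adjusted p = 0.0176). The share was 15.3% at ranks 1206 to 2410 of the combined list and 1.65% at ranks 20001 to 30000.

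By type, snoRNA genes were near 32 distal peaks (8.27%), 21 promoter peaks (2.57%) and 122 weaker distal regions (0.604%). For tRNA genes the counts were 31 distal peaks (8.01%), 9 promoter peaks (1.1%) and 249 weaker distal regions (1.23%). snRNA genes were near 14 distal peaks (3.62%), 4 promoter peaks (0.489%) and 25 weaker distal regions (0.124%). MicroRNA genes were near 6 distal and 6 promoter peaks, lincRNA genes near 3 and 2, and rRNA genes near none of either. A summit can lie near more than 1 type.

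Summits at snRNA, snoRNA and tRNA genes lay mostly just upstream of the 5′ end. Of the 13 distal summits whose nearest listed gene was an snRNA gene, 9 lay 1 to 100 bp upstream of its 5′ end, with a median position of 41.0 bp upstream. For snoRNA genes 25 of 32 lay in that interval, with a median of 55.5 bp upstream. For tRNA genes 20 of 31 did, with a median of 25 bp upstream, and another 8 lay within the first 100 bp of the gene. The 6 distal summits at microRNA genes differed in this, all lying 242 to 343 bp upstream. Of the 6 promoter summits at microRNA genes, 3 lay 1 to 100 bp upstream. The 3 distal summits at lincRNA genes lay 205 to 328 bp upstream. The annotated 5′ end of a microRNA gene is that of the hairpin, which is cut from a longer transcript.

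**Figure D2:**
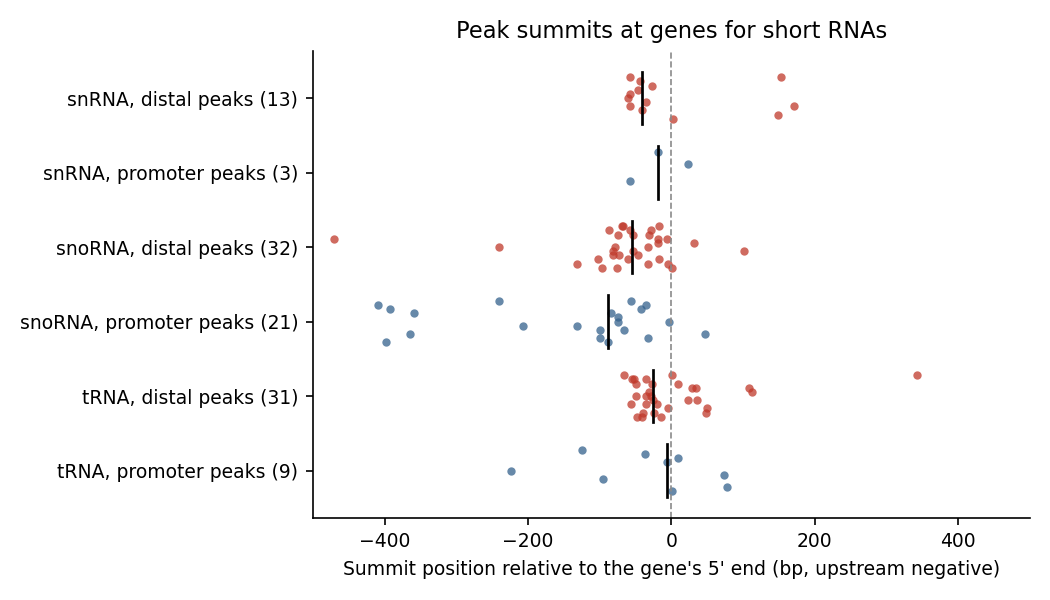
Position of each summit (bp, upstream negative, dashed line at the 5′ end) relative to the nearest snRNA, snoRNA or tRNA gene, with distal peaks above promoter peaks in each class; vertical bars are medians and the vertical spread of points carries no value. The medians for distal peaks were -41.0, -55.5 and -25 bp.

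SL2 genes gave the strongest of these peaks. The sls-2.1 peak (chromosome II, summit 5844807) ranked 28 in replicate 1 and 41 in replicate 2, with replicate signals of 378.2 and 155.1. The sls-2.4 peak (chromosome I, summit 4172149) ranked 29 and 36, with signals of 370.0 and 167.9. At sls-2.2 (chromosome II, summit 5543552) the summit was 46 bp upstream, with signal 346.0 and ranks 70 and 67. At sls-2.3 it was 41 bp upstream, with a lower signal of 125.5 and ranks 349 and 1304. The first 3 genes ranked within the top 70 in both replicates, and sls-2.3 did so in neither.

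In all, 5 of the 18 annotated sls-2 genes had a distal summit within 500 bp, and 2 had a promoter peak, sls-2.8 (19 bp upstream, signal 249.7) and sls-2.7 (23 bp downstream, 80.7). Some region of the combined list lay that close to 15 of the 18. None of the 12 genes annotated as SL1 (sls-1) had any region of the combined list within 500 bp. SL1 genes form a tandem array of near-identical copies, and how repeated sequence was aligned is not given in the sources used here, so no binding can be read from this in either direction. Secondary summits 149 bp downstream of the sls-2.1 5′ end (rank 457) and 153 bp downstream of that of sls-2.2 (rank 771) matched the same replicate regions as the main ones. Such sharing of a replicate region with another optimal peak held for 26 of the 387 distal peaks in each replicate, and for 10 of the 818 promoter peaks.

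The 15 bases in capitals in the SL2 lines, TCGCTTGCCTCGAAA, occurred in the same upstream window at 4 of 129 annotated snRNA genes, at none of 346 snoRNA genes and at none of 612 tRNA genes. They were within 50 bp of 4 distal summits, no promoter summit and no weaker distal summit, on either strand. The 5 bases AACCC were in this window at 50 of 129 snRNA genes (38.8%), 28 snoRNA genes (8.09%), 8 tRNA genes (1.31%) and 406 of 29773 protein-coding 5′ ends (1.36%). Around summits AACCC was common throughout: 11.9% of distal peaks, 8.92% of promoter peaks and 9.51% of weaker distal regions held it within 50 bp. Both runs were read from these sequences after the values were seen, and a shared run is a description, not a binding site.

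The strongest distal peaks at other snRNA genes were those of sup-6 (signal 245.6; ranks 112 and 248 in replicates 1 and 2), R07E5.16 inside an intron of dhc-4 (238.1; 109 and 403), and sup-39, a U1 snRNA gene (190.8; 197 and 399). These 3 ranked higher in replicate 1, as did F54D8.7 (127.7, ranks 450 and 647) and F32B5.9 (121.1, ranks 542 and 634). F38E11.11 (133.9, ranks 690 and 323) ranked higher in replicate 2, as did T11F9.15 (75.5, 171 bp downstream, ranks 337 and 200). The T11F9.15 ranks are those of the best overlapping region, which another optimal peak may share. The strongest at snoRNA genes were F59C6.15 (332.7, 69 bp upstream; ranks 65 and 125), F12F6.11 (252.3, 82 bp upstream; 143 and 118) and W01H2.11 (228.6, 471 bp upstream; 171 and 189). At microRNA genes the leading peaks were cel-mir-2216 in an intron of gmps-1 (267.0), cel-mir-80 (164.3) and cel-mir-54 (138.6). The lincRNA genes were linc-108 (105.8), linc-91 (94.8) and linc-60 (91.0).

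Peaks at tRNA genes were weaker, with a median rank of 798.0 of 1205. The leading one (307.7, rank 92) lay 343 bp downstream of the 5′ end of C18A11.t2, so outside the tRNA gene, and 4899 bp from the nearest coding 5′ end, that of xol-1, the switch gene of sex determination. F47G6.t1 followed, with a summit 20 bp upstream (136.4; ranks 425 and 518). Of the 31 tRNA-associated distal peaks, 28 ranked higher in replicate 1 than in replicate 2, against 237 of all 387 distal peaks (61.2%). Among promoter peaks at tRNA genes 5 of 9 did, and these shares were not tested. Chromosome X held 15 of the 31 distal peaks, and it holds 276 of the 612 annotated tRNA genes.

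The 85 peaks near these genes had a median signal of 105.1 and a median rank of 693.0, against 102.8 and 720.5 in the other distal peaks. Their GC content was higher, with a median of 52.5% within 50 bp of the summit against 47.0%. These medians were not tested.

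Distal peaks were weaker than promoter peaks on the whole. Their signal ran from 72.2 to 1918.1 with a median of 103.0, against a median of 120.0 and a maximum of 29680.6 in promoter peaks. No distal peak was in the first 10 and only 1 was in the first 25. Above the median signal of the optimal list were 154 distal peaks (39.8%) and 448 promoter peaks (54.8%; odds ratio 0.546, 0.427 to 0.698; two-sided Fisher's exact test, adjusted p = 2.82e-06). For the top 100 the direction was the same but the difference did not pass, with 27 distal and 73 promoter peaks (odds ratio 0.765, Fisher's exact test, adjusted p = 0.266).

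**Figure D3:**
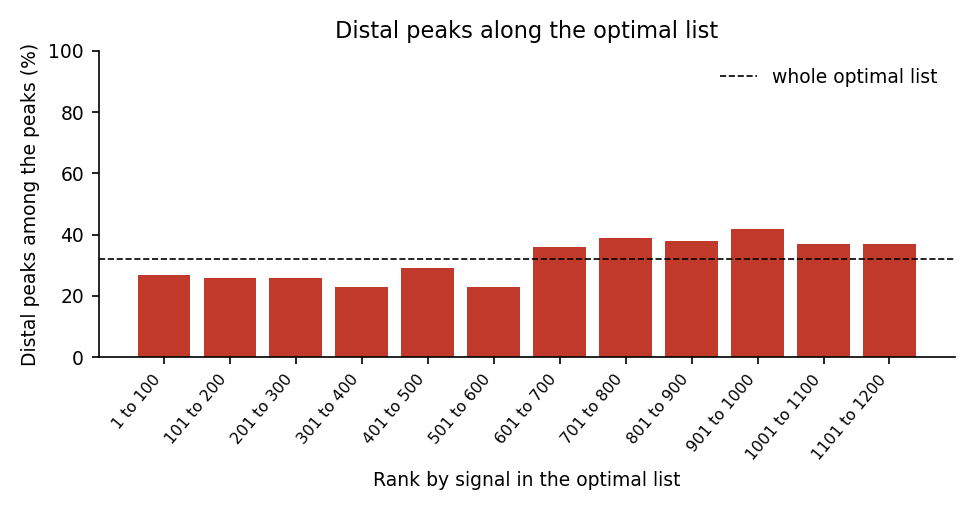
Share of distal peaks (%) among each 100 consecutive peaks of the optimal list, ranked by signal; the dashed line is their share of the whole list, and the last 5 ranks are left out. The bars lie between 23 and 29% in the first 600 ranks and between 36 and 42% from rank 601 to 1200.

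The remaining distal peaks of the top 25 lay at genes of several kinds. ceh-20, which encodes a Pbx-type homeodomain protein, had a summit 807 bp upstream (rank 48, signal 414.8), and cbp-1, a CBP/p300 acetyltransferase gene, had one 886 bp upstream (rank 83, 320.3). A summit lay 1292 bp from the body of hpk-1, which encodes a homeodomain-interacting protein kinase (rank 51, 403.9). The coding 5′ end nearest to this summit was not that of hpk-1 but that of F20B6.9, 1794 bp away. Another summit was in an intron of simr-1, a Tudor domain gene of small RNA pathways (rank 56, 384.4). Rank 88 (312.0) lay 302 bp from the body of lin-9, a gene of the DREAM complex, but 4196 bp downstream of its 5′ end. The stronger peak at rank 6 was 4352 bp away. At rank 64 the summit was 528 bp upstream of ubql-1, which encodes ubiquilin.

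Some had no coding gene close by. Rank 63 (366.2) lay 5092 bp from adm-2, its nearest coding gene, and rank 57 (378.4) lay 1483 bp from the tRNA gene W02H3.t1 and 2762 bp from W02H3.3. Others were closer to a gene: ranks 54, 61, 80, 85 and 94 were nearest to F58D12.1, F40E3.3, R12C12.8a, F25E2.2 and F19H6.6, with signals of 385.6, 373.5, 327.9, 315.5 and 302.8.

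Nearly all distal peaks overlapped a region of each replicate, which is no independent result because the list was cut by rank agreement. A region of replicate 1 overlapped all 387, and a region of replicate 2 overlapped 386. Their median rank was 676.0 in replicate 1 and 714.5 in replicate 2, against 564.5 and 543.0 for promoter peaks. The rank was better in replicate 1 for 237 distal peaks and in replicate 2 for 148, against 436 and 363 promoter peaks. The larger rank was a median of 1.5 times the smaller, and 1.41 times in promoter peaks.

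Agreement at the top was lower for distal peaks. Both replicates placed 259 of 387 distal peaks (66.9%) within their own first 1205 regions, against 621 of 818 promoter peaks (75.9%; odds ratio 0.642, 0.492 to 0.837; two-sided Fisher's exact test, adjusted p = 0.00163). Replicate 1 alone placed 349 there and replicate 2 placed 291. Above the median signal, 151 of 154 distal and 442 of 448 promoter peaks met this rule (odds ratio 0.683, Fisher's exact test, adjusted p = 0.7). The difference also did not pass with a 250 bp window (0.803, Fisher's exact test, adjusted p = 0.105) or with the first 5000 regions of each replicate (0.708, adjusted p = 0.735). The main counts include the 26 distal and 10 promoter peaks that, in each replicate, share a region with another optimal peak. Such a peak can take its rank from the stronger neighbour.

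**Figure D4:**
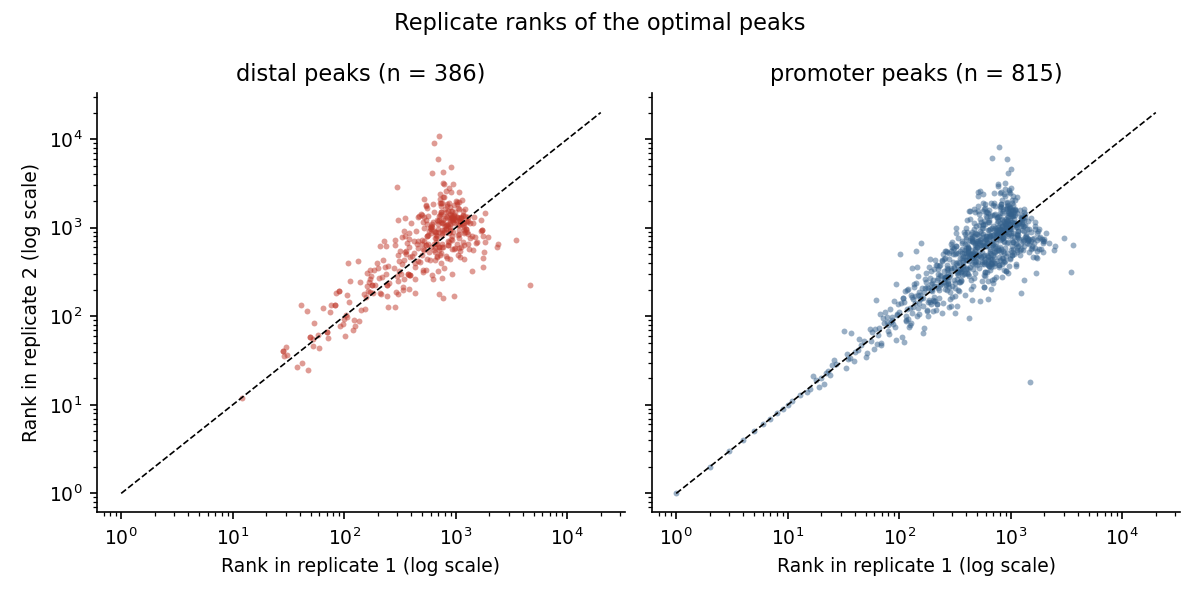
Rank in replicate 1 (x) and replicate 2 (y), both on log scales, of the 386 distal peaks (left) and 815 promoter peaks (right) found in both replicates; the dashed line marks equal ranks. Distal peaks start at rank 12 in both replicates and spread most beyond rank 500.

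The largest rank ratios among distal peaks fell mainly at non-coding genes. At W06H8.14 (rank 747) the ranks were 4640 in replicate 1 and 226 in replicate 2. The other 4 ran the other way: K10H10.14 (707 in replicate 1 and 10822 in replicate 2), F48C1.15 (635 and 9155), F16A11.7 (299 and 2874) and linc-105 (698 and 6004). All but the linc-105 peak had their summit inside a non-coding gene.

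Chromosome X held more distal peaks and fewer promoter peaks. It carried 84 of 387 distal peaks (21.7%) and 54 of 818 promoter peaks (6.6%; odds ratio 3.92, 2.72 to 5.66; two-sided Fisher's exact test, adjusted p = 4.48e-13). Of all optimal peaks on X, 60.9% were distal, against 28.4% of autosomal peaks and 26.8 to 30.8% on single autosomes. For scale, X held 15.9% of weaker distal regions, 13.7% of protein-coding genes and 17.7% of the sequence. Without the peaks near listed non-coding RNA genes the odds ratio was 4.14 (67 of 302 distal and 50 of 776 promoter peaks, Fisher's exact test, adjusted p = 8.22e-12).

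Distal peaks on X had a median signal of 108.4, against 95.2 to 115.6 on single autosomes. None of them was stronger than the rank 51 peak between hpk-1 and F20B6.9 (403.9). Their median distance to a coding 5′ end was 2230.0 bp, against 1073.5 to 1793.0 bp on the autosomes. Of the 84, 55 were intergenic and 16 intronic, and 12 lay inside non-coding genes. Chromosome V was at the other end, with 38 distal peaks (9.82%) and 104 promoter peaks (12.7%), against 25% of protein-coding genes.

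**Figure D5:**
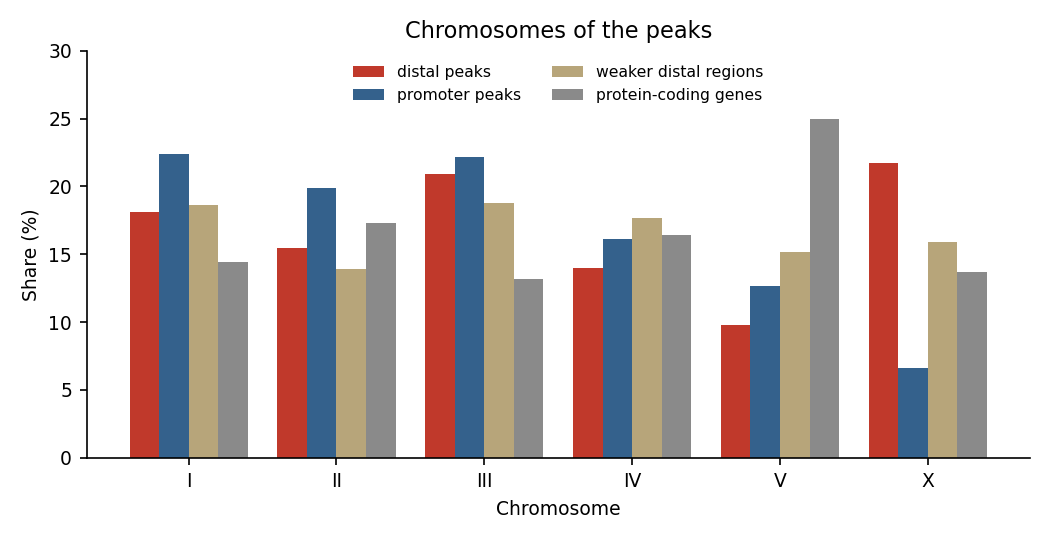
Share (%) of distal peaks, promoter peaks, weaker distal regions and protein-coding genes on each chromosome. On X the shares were 21.7, 6.6, 15.9 and 13.7%.

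The sequence at distal summits was richer in GC than its surroundings. The median was 48.5% within 50 bp of the summit and 35.3% in flanks 200 to 250 bp away, and the summit value was higher in 326 of 387 peaks. Promoter peaks had medians of 46.5% and 34.3%. Among 121 words of 8 bases present in at least 20 distal peaks, 22 (18.2%) were more frequent at the summit and 49 (40.5%) in the flanks by an exact sign test (adjusted p under 0.05). The flank words were rich in A and T, led by AAAAAAAA, which 9 peaks had at the summit alone and 47 in the flanks alone (exact sign test, adjusted p = 7.78e-06).

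AGACGCAG led the summit words. There were 43 peaks with it at the summit alone and 3 with it in the flanks alone (exact sign test, adjusted p = 5.59e-08), and the overlapping words GAGACGCA (40 and 3) and GACGCAGA (35 and 3) followed. Repeats of GA made up most of the rest, such as ACGAGAGA (24 and 3), ACTCTCTC (27 and 5) and AGAGAGAG (30 and 9). AGACGCAG was already known from earlier results on all optimal peaks, so its presence here is no independent result. It occurred 49 times in 44 distal peaks, 29 times within 25 bp of the summit. The number of words called at the summit depended on the choice of peaks and words: 42 with a 250 bp window, 7 with a 1000 bp window, 4 with 25 bp each side and none of 2 words tested above the median signal.

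Distal and promoter peaks did not differ detectably in the share with AGACGCAG on either strand within 50 bp. It was in 44 distal peaks (11.4%) and 69 promoter peaks (8.44%; odds ratio 1.39, 0.934 to 2.08; two-sided Fisher's exact test, adjusted p = 0.113). The difference passed with a 250 bp window (1.68, Fisher's exact test, adjusted p = 0.0137) and with the top regions of replicate 1 alone (1.62, adjusted p = 0.0313). Weaker distal regions held the word in 1.09% and consecutive windows of the same length across the genome in 0.521%. Within distal peaks it was in 5 of 85 near a listed non-coding RNA gene (5.88%) and in 39 of the other 302 (12.9%).

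A second word, GCAAACAC, was less frequent in distal peaks. This word too was chosen with earlier results of these data known, so the test is not independent of that choice. It was in 11 distal peaks (2.84%) and 73 promoter peaks (8.92%; odds ratio 0.299, 0.157 to 0.57; two-sided Fisher's exact test, adjusted p = 7.64e-05), against 0.54% of weaker distal regions and 0.417% of genome windows. Above the median signal the counts were 8 of 154 and 38 of 448 (odds ratio 0.591, Fisher's exact test, adjusted p = 0.303).

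Near-identical copies of the summit sequence were more frequent among distal peaks. The sequence within 50 bp of the summit had another match of at least 80 bases at 90% identity in the genome for 23 distal peaks (5.94%) and 14 promoter peaks (1.71%; odds ratio 3.63, 1.85 to 7.13; two-sided Fisher's exact test, adjusted p = 2.85e-04). Signal at such a place cannot be assigned to 1 copy with certainty, since reads can fit several. Some of the 23 are copies of one another, such as ranks 454, 628 and 1065. The test thus counts related sequences as separate peaks. The strongest distal peak, at ekl-1 (rank 13), had 5 other copies, all within regions of the combined list, and 4 optimal peaks lay at them (ranks 15, 35, 37 and 67). Both Y56A3A.7 peaks (ranks 35 and 37) belong to this family. The F31E3.6 peak (rank 195) matched the sequence at rank 12, and it lay at a copy of each Y56A3A.7 sequence.

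Other copies were of different kinds. The tRNA genes F15G9.t1, C37A2.t1, C42D8.t1, K02B12.t1 and C04A2.t1 had 11 to 19 other copies each. Those of eel-1 (rank 198), with 33, C05C10.2 (rank 1099), with 27, and fbxa-55 (rank 1088), with 552, lay on 6 chromosomes each. The peaks near unc-85 (rank 872) and K08F11.6 (rank 636) had 18 and 4. Besides F31E3.6, single copies were found for simr-1 (rank 56), K08F11.6 (rank 276), hlh-29 (rank 512) and lin-9 (rank 618). The same held for ehs-1 (rank 885) and Y111B2A.25 (rank 1136). Without the 23 copied peaks the share near listed non-coding RNA genes kept its odds ratio, at 9.79 (80 of 364, Fisher's exact test, adjusted p = 1.50e-43). Copied sequences were not removed from the weaker distal regions (565 of 20195), so the 2 sides were not treated alike.

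The protein-coding genes nearest to distal peaks numbered 347, and gene families were counted among them by symbol. None was a cytosolic ribosomal protein, translation factor, C-type lectin or histone gene, families that make up 0.391, 0.165, 1.2 and 0.36% of all protein-coding genes. Chemoreceptor genes made up 0.576% (sre-23 and srh-2), against 5.86% of all protein-coding genes. Nuclear hormone receptor genes, which encode ligand-regulated transcription factors, made up 2.02% (nhr-1, nhr-14, nhr-19, nhr-34, nhr-61, nhr-88 and nhr-105), against 1.35%. Homeobox genes made up 0.576% (ceh-20 and ceh-8), against 0.335%, and collagen genes 0.576% (col-99 and col-128), against 0.781%. F-box genes made up 0.865% (fbxa-55, fbxa-83 and fbxb-58), against 1.61%. Chaperone genes (hsp-12.3) and mitochondrial ribosomal protein genes (mrpl-20) made up 0.288% each, against 0.295% and 0.35%. These shares were not tested, and the nearest gene is assigned by distance to the gene body only. By nearest coding 5′ end, rank 240 would go to the translation factor gene eif-2Bgamma (937 bp upstream). Rank 546 would go to eif-3.J (941 bp upstream).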

How the data were processed

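The files used were lists of regions in ce11, 1 for each replicate (30000 in replicate 1 and 28005 in replicate 2), 1 relaxed combined list (30000) and 1 optimal list (1205), cut by IDR, the irreproducible discovery rate, which measures how well 2 replicates rank regions alike. Per the deposited companion text, relaxed lists came from alignments against 1 control file. Not given in the sources used here are the aligner, the caller, their versions, the treatment of repeated reads and the IDR threshold. The signal value of each region was deposited by the authors; its scale is set by the calling run, so it served only to rank within a list. The −log10 q value deposited by the authors was 2.93 in every optimal peak and ordered nothing. Summits were placed from the column of summit offsets that the authors deposited. Depth is unknown. Control alignments and ce10 lists were not used here.

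Summits were classed with Ensembl release 115 on WBcel235, in the order coding exon, 5′ UTR, 3′ UTR, non-coding gene, intron, intergenic. A replicate rank is that of the best region overlapping by at least 1 bp. The 12 class comparisons used two-sided Fisher's exact tests (scipy 1.17.1) with Benjamini-Hochberg adjustment and a threshold of 0.05. Words were tested between 94 positions at the summit and 88 in the flanks, which slightly favours the summit. Copies were found with blastn 2.17.0. The word test and odds ratio were tested on simulated data. Gene lists were made by symbol. The distal peaks, words and lists were chosen with earlier results of these data known. Genes named are those at the 25 distal peaks of highest signal, the 3 highest of each class and non-coding type, the peaks at the threshold, the 5 farthest from coding 5′ ends, the 5 with the largest rank ratio, and those at copies. Other snRNA genes and the genes of printed sequences were added after their values were seen. Nothing in the labels says that replicates shared a culture or a day.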

Additional observations from a re-analysis of the deposited data

How the results depend on the processing

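Of 107 results recomputed under another setting, 89 kept their direction and side of the threshold or stayed within 1.5 times, and none reversed. The number of distal peaks was 597 with a 250 bp window, and 377 and 407 with the top regions of replicate 2 or 1 alone. Rank agreement lost its call with the 250 bp window (odds ratio 0.803), above the median signal (0.683) and at the first 5000 (0.708). The share with AGACGCAG gained one with the 250 bp window (1.68); with 1 replicate left out it was 1.38 to 1.62. The second word lost its call above the median signal (0.591). The UTR share lost it above the median (0.612) and against the next regions by signal (0.413), and ran from 0.293 to 0.78 with 1 replicate left out. Against the next regions the intron (0.864) and non-coding gene (1.41) shares lost theirs, and signal lost it for the top 100 (0.765). Words at the summit numbered 42 (250 bp), 7 (1000 bp), 0 (above the median signal), 4 (25 bp each side) and 182 (6 bases), since each setting changes how many peaks or words are tested. The cause of the other changes was not tested. Leaving out peaks at listed non-coding RNA genes or at copies was chosen after the data were seen and changed no call. Copies were left out of the optimal peaks only, not of the weaker distal regions. No paired analysis was possible because there is 1 group. The number of peaks limits small classes such as UTRs, and depth is unknown.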

Other observations

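Other kinds of non-coding gene were near distal peaks as well. The 5′ end of a gene with the general type ncRNA lay within 500 bp of 109 distal peaks (28.2%), 97 promoter peaks (11.9%) and 1685 weaker distal regions (8.34%). Genes for piRNAs, the short RNAs that guard the germ line, were near 7 distal peaks (1.81%), 7 promoter peaks (0.856%) and 988 weaker distal regions (4.89%). Their share in distal peaks was thus below that of weaker distal regions but above that of promoter peaks. Pseudogenes were near 11 distal peaks (2.84%), 2 promoter peaks (0.244%) and 257 weaker distal regions (1.27%). None of these was tested. Another optimal peak lay within 2000 bp of 76 distal peaks (19.6%) and of 80 promoter peaks (9.78%). The median distance to it was 15641 bp for distal peaks and 22722 bp for promoter peaks.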
